A study of Zea mays with 13 samples.

Results

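The MIR172 genes of maize were examined for histone marks in young leaves under drought and after recovery. Members were the features of the count tables whose ID is zma-MIR172 followed by a letter, which gave 4 genes, zma-MIR172b, zma-MIR172c, zma-MIR172d and zma-MIR172e, among 154 microRNA genes and 43943 features in all. The rule reads IDs alone. Plants of the inbred B73 were raised with normal watering and then held for 10 days at either 75% (well watered, NS) or 25% (drought stressed, WS) of disposable water, with the same salt concentration in both. Immature wrapped leaves were collected at the end of those days (T0) or 7 days into recovery (T7), which gave 4 groups. Well-watered plants are called control plants from here on. Chromatin from each group was immunoprecipitated with antibodies to H3K4me3, H3K9ac and H3K27me3 and sequenced. Each mark had 1 library per group, 12 in all, and a further library, of whole chromatin without antibody, came from control plants at T0. There were no replicates, so no value below has an SD, and how many plants a library stands for is not given in the sources used here. A leaf holds many cell types, and a mark present in fewer cells cannot be told apart from less of the mark per cell.

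MicroRNA genes are transcribed by RNA polymerase II into long primary transcripts, from whose hairpins the mature microRNA is cut. The microRNA miR172 acts on transcripts of APETALA2-like transcription factors. In maize these include glossy15, which maintains juvenile leaf traits, so that miR172 promotes the change to adult leaves, and indeterminate spikelet1 in the inflorescence. The microRNA miR156, which acts on transcripts of SPL transcription factors, is high in juvenile shoots and falls with age, and miR172 rises. The maize mutant tasselseed4, known for its inflorescence, carries a lesion in zma-MIR172e. H3K4me3 and H3K9ac are marks of active promoters, and H3K27me3 is the mark of Polycomb silencing.

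All 4 genes were matched by name in the RefSeq gene table of the Zm-B73-REFERENCE-NAM-5.0 assembly, which is later than the assembly the reads were counted on. There the hairpins of zma-MIR172c, zma-MIR172d and zma-MIR172e lie inside the long noncoding RNA genes LOC115032943, LOC115032942 and LOC100278541. No other gene spans zma-MIR172b, which lies between the pseudogene LOC111589334 and the protein-coding LOC103627897. Of the 153 microRNA genes matched in that table, 70 lie inside a long noncoding RNA gene. The start of a hairpin can therefore lie downstream of the promoter of its primary transcript. Whether the counting centred its windows on hairpins or on transcript starts is not given in the sources used here. The MIR172 copies are related in sequence, and how reads that fit more than 1 place were treated is likewise not given.

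The H3K4me3 libraries held 2793985 to 6876219 counts over all features, the H3K9ac libraries 1152884 to 1856159 and the H3K27me3 libraries 1612935 to 1969485. Whole chromatin held 3055058 counts in 1 kb windows at transcription starts. There zma-MIR172b had 62 counts, zma-MIR172c 77, zma-MIR172d 74 and zma-MIR172e 76, so the background of the genes was alike. Enrichment of an active mark is given as log2 of the CPM (counts scaled to the library total) in the library over the CPM of whole chromatin in the 1 kb window. Its 95% interval covers counting error only. A negative value says that the window took a smaller share of the library than of whole chromatin. The tissue was not checked against marker genes, because the gene models are listed by ID and none could be paired with a name.

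H3K9ac enrichment put the members in the same order in all 4 groups, with overlapping intervals between most neighbours in that order. The highest was zma-MIR172c, with 112 H3K9ac counts in control and 71 in stressed plants at T0, then 57 and 51 at T7. Its log2 enrichment was 1.26 (95% interval 0.83 to 1.70) and 0.83 (0.35 to 1.32) at T0, and 0.87 (0.35 to 1.38) and 0.82 (0.27 to 1.34) at T7, in the same order. The intervals of all 4 libraries lay above 0 and overlapped each other. Among the 43580 features with at least 20 whole-chromatin counts, zma-MIR172c lay at percentile 91.8, 84.9, 86.3 and 83.7. By its mean over the libraries it ranked 5 of the 154 microRNA genes.

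The next in order was zma-MIR172b. It held 39 and 38 H3K9ac counts at T0, then 28 and 30 at T7, well watered before stressed. Its log2 enrichment ran from 0.06 (-0.57 to 0.65) in control plants at T0 to 0.37 (-0.32 to 1.01) in stressed plants at T7. Every interval held 0, and the 4 libraries did not differ beyond counting error. It ranked 17 of 154 microRNA genes.

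In zma-MIR172d, 20 and 24 H3K9ac counts at T0, then 23 and 22 at T7 gave log2 enrichments of -1.14 (-1.96 to -0.44), -0.65 (-1.40 to 0.01), -0.37 (-1.13 to 0.30) and -0.32 (-1.10 to 0.36). The lowest value was that of control plants at T0, and its interval overlapped the others. The tasselseed4 gene zma-MIR172e had the fewest counts, 15 and 19 at T0 and 8 and 11 at T7. Its log2 enrichment was -1.58 (-2.53 to -0.81), -1.02 (-1.86 to -0.31), -1.87 (-3.21 to -0.90) and -1.33 (-2.44 to -0.46), below 0 with its interval in each library. It ranked 124 of 154 microRNA genes. The order of the levels was thus zma-MIR172c, zma-MIR172b, zma-MIR172d, zma-MIR172e in every group, and the intervals of zma-MIR172b and zma-MIR172d, and of zma-MIR172d and zma-MIR172e, overlapped in each of them. Those of zma-MIR172c and zma-MIR172b were apart in control plants at T0 and overlapped in the other groups.

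**Figure D1:**
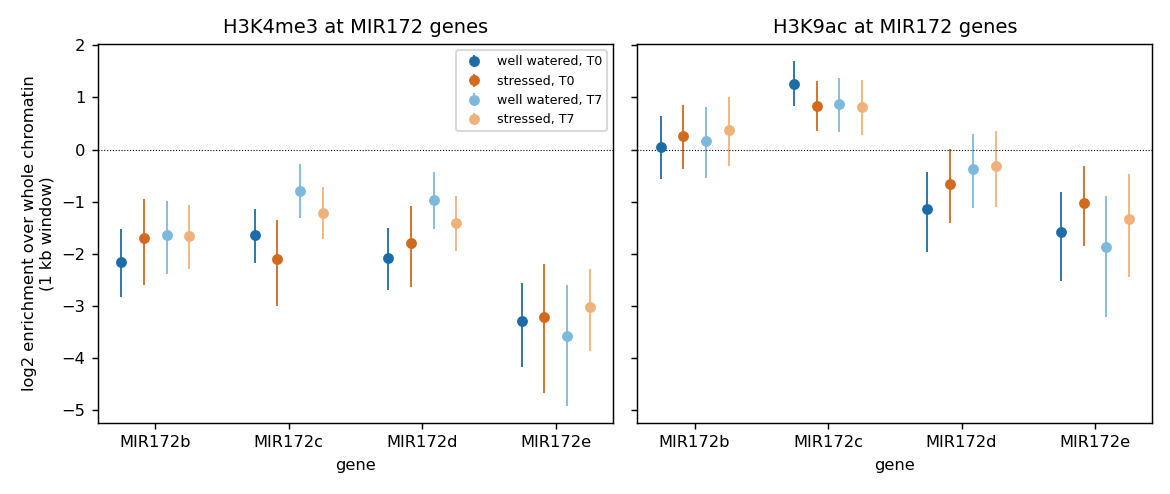
Log2 enrichment over whole chromatin (vertical axis) of H3K4me3 (left) and H3K9ac (right) at the 4 MIR172 genes, 1 point per library, coloured by watering and time, with bars for the 95% counting interval. H3K9ac at zma-MIR172c lies above 0 in all 4 libraries, at 0.82 to 1.26, and H3K4me3 lies below 0 at every gene.

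H3K4me3 over the 1 kb window lay below whole chromatin at every member and library. Over whole-gene counts of whole chromatin the sign turns, with a median over members and libraries of 3.25 in place of -1.76, so the levels below are read against other features. In zma-MIR172c it held 55 counts in control and 16 in stressed plants at T0, then 59 and 65 at T7, with log2 enrichments of -1.65 (-2.18 to -1.14), -2.10 (-3.01 to -1.35), -0.79 (-1.31 to -0.29) and -1.21 (-1.71 to -0.72). Both T7 values lay above both T0 values, and the interval of control T7 plants stood just above that of stressed T0 plants. These levels were at percentile 40.1, 33.7, 48.0 and 42.5 of all features, whose medians were -0.62 to -0.52.

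The counts of H3K4me3 at zma-MIR172d were 39 and 19 at T0 and 50 and 54 at T7, with enrichments of -2.09 (-2.69 to -1.52), -1.80 (-2.64 to -1.09), -0.97 (-1.52 to -0.44) and -1.42 (-1.96 to -0.90). Here too both T7 values exceeded both T0 values. At zma-MIR172b, 31 and 17 counts at T0, then 26 and 38 at T7 gave -2.16, -1.71, -1.65 and -1.67, which lay within each other's intervals. At zma-MIR172e, 17 and 7 counts at T0, then 8 and 18 at T7 gave -3.30, -3.22, -3.58 and -3.02, again within counting error of each other. The first 3 genes ranked 40 (zma-MIR172b), 34 (zma-MIR172c) and 38 (zma-MIR172d) among 154 microRNA genes, so their H3K4me3 levels were close, and zma-MIR172e ranked 99. By mean, zma-MIR172c was highest and zma-MIR172e lowest of the members in both marks. Only zma-MIR172b and zma-MIR172d changed places between the marks, and their H3K4me3 intervals overlapped in each group.

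The marks were then set against each other within each group. This difference does not depend on whole chromatin or its window. In zma-MIR172c, H3K9ac exceeded H3K4me3 by 2.91 (95% interval 2.44 to 3.41) on the log2 scale in control and 2.94 (2.17 to 3.85) in stressed plants at T0, and by 1.66 (1.11 to 2.21) and 2.03 (1.47 to 2.58) at T7. The median over all features was 0.43 to 0.49, and over microRNA genes 1.34 to 1.79. The T0 values of zma-MIR172c were above those of all but 19 and 14 of the other microRNA genes in control and stressed plants, and at T7 it lay at percentile 50.6 and 72.1 of them. The other members lay between 0.61 and 2.22, with zma-MIR172d lowest in each group. Low features differed in level between the marks. In control plants at T0 the 25th percentile of enrichment was -3.51 for H3K4me3 and -1.29 for H3K9ac. A feature low in both marks can thus show an excess, and that of zma-MIR172e was 1.69 to 2.20.

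Across features both marks rise together, and zma-MIR172c stood at the edge of that relation by its means over the 4 libraries. At T0 its excess of H3K9ac over H3K4me3 lay at percentile 89.1 (control) and 93.6 (stressed) of all features. At T7 it lay at 71.6 and 81.2. Features were divided by their mean H3K4me3 enrichment into 50 bins of equal size. In the bin of zma-MIR172c, the mean H3K9ac enrichment had a median of -0.68 over 872 features, and a single feature exceeded the 0.94 of zma-MIR172c. In the bin of zma-MIR172b, 9 of 872 features exceeded its 0.21, against a median of -0.77. The other members lay at percentile 60.1 (zma-MIR172d) and 12.5 (zma-MIR172e) of their bins. Binned by CPM with no background, 1 of 879 features exceeded zma-MIR172c and 18 of 879 exceeded zma-MIR172b, with zma-MIR172d at percentile 76.3 and zma-MIR172e at 22.8. Binned on enrichment over whole-gene whole-chromatin counts, 15 of 875 exceeded zma-MIR172c and 62 of 875 zma-MIR172b, with zma-MIR172d at percentile 79.7 and zma-MIR172e at 90.9. The place of zma-MIR172e thus turned from low to high with the background.

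**Figure D2:**
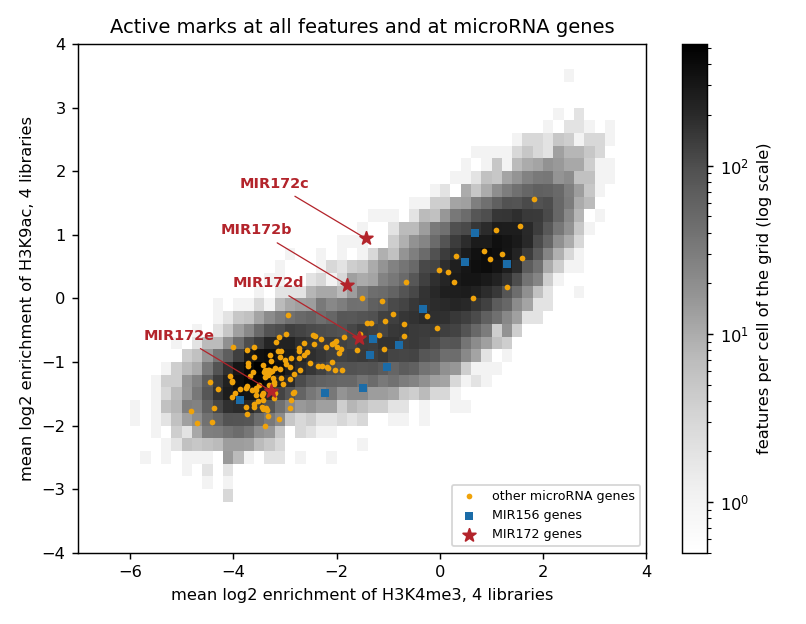
Mean log2 enrichment of H3K4me3 (horizontal) against that of H3K9ac (vertical) over 4 libraries each, with the density of 43580 features in grey on a log scale, other microRNA genes as orange points, MIR156 genes as blue squares and MIR172 genes as red stars. zma-MIR172c, at -1.44 and 0.94, lies on the upper edge of the grey cloud.

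To give each gene a call, a mark was counted as present where all 4 libraries had an enrichment 2-fold or more over their own 25th percentile. By this definition H3K9ac marked zma-MIR172b and zma-MIR172c, where it marked 9.74% of microRNA genes and 31.1% of features. H3K4me3 marked zma-MIR172b, against 23.4% of microRNA genes and 60.0% of features. Of 13569 features with an H3K9ac call, 32 had no H3K4me3 call (0.236%), and zma-MIR172c was the single microRNA gene among them. That call rests on the stressed T0 library with its 16 counts, where zma-MIR172c lay 0.65 above the 25th percentile on the log2 scale, against 1.60 to 2.02 in the others. By the same rule zma-MIR172d and zma-MIR172e had neither call, and that of zma-MIR172d for H3K4me3 was missed in the stressed T0 library alone, at 0.95 on 19 counts against 1.39 to 1.84 in the others. Without that library 3 of the 4 members had the H3K4me3 call, all but zma-MIR172e, beside 27.9% of microRNA genes and 61.0% of features.

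The question of drought was taken from stressed against control libraries at the same time. With 1 library per group a comparison of a pair has no test. A size rule was used instead: a scaled difference of at least 1.5-fold whose exact counting interval, at an error level of 0.1%, leaves out no change, for features with at least 40 counts over the libraries of the mark. All 4 members passed that filter for H3K4me3 and for H3K9ac. None met the rule (0 of 4) for either mark at T0 or at T7. At T0 the rule took 1.97% of features for H3K4me3 and 1.27% for H3K9ac. At T7 it took 0.191% and 0.194%.

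The depth limits what could be seen. The count of zma-MIR172c allowed the rule to take a 1.68-fold lower H3K9ac at T0, and those of zma-MIR172c, zma-MIR172d and zma-MIR172b a 3.29-fold, 3.62-fold and 4.59-fold lower H3K4me3. For zma-MIR172e no lower H3K4me3 count above 0 in stressed plants could have met the rule at T0. In zma-MIR172c the T0 log2 ratio of stressed over control was -0.49 (95% interval -1.42 to 0.30) for H3K4me3 and -0.47 (-0.93 to -0.03) for H3K9ac. The H3K9ac interval left out 0. Features of like H3K9ac enrichment had a median of -0.19 in that comparison, and zma-MIR172c lay at percentile 12.5 of all features. Its H3K9ac enrichment in control T0 plants, the denominator here, was 1.26, against 0.82 to 0.87 in the other groups. The T7 over T0 ratio of control plants shares that denominator. After recovery the ratios of zma-MIR172c were -0.44 (-0.97 to 0.09) and -0.04 (-0.62 to 0.53).

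The ratios of the other members were above 0 in each drought comparison but that of H3K4me3 at T7, where zma-MIR172b and zma-MIR172d were below 0. At T0, zma-MIR172b, zma-MIR172d and zma-MIR172e had H3K4me3 ratios of 0.41, 0.24 and 0.04 and H3K9ac ratios of 0.14, 0.44 and 0.51, and each interval held 0. At T7, their H3K4me3 ratios were -0.04, -0.47 and 0.54 and their H3K9ac ratios 0.21, 0.05 and 0.55, again with 0 in each interval. The medians over the 4 genes at T0 were 0.14 for H3K4me3 and 0.29 for H3K9ac, beside 0.01 and 0.02 over all features tested and 0.20 and 0.14 over the microRNA genes tested.

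A drought effect shared by T0 and T7 was tested with edgeR's quasi-likelihood test in an additive model of watering and time over the 4 libraries of a mark, which has 1 residual degree of freedom per feature before sharing across features. None of the members was called (0 of 4 for each mark), where 0.0028% of features were called for H3K4me3 and 0.00242% for H3K9ac. The nearest was H3K4me3 at zma-MIR172c, with -0.47 ± 0.25 (SE) on the log2 scale (edgeR adjusted p = 0.782, unadjusted p = 0.0695) and a lower value under stress at both times. DESeq2 called 0 features for either mark, with unadjusted p under 0.05 at 19 and 13 features, and edgeR had such a p at 2362 and 1654.

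**Figure D3:**
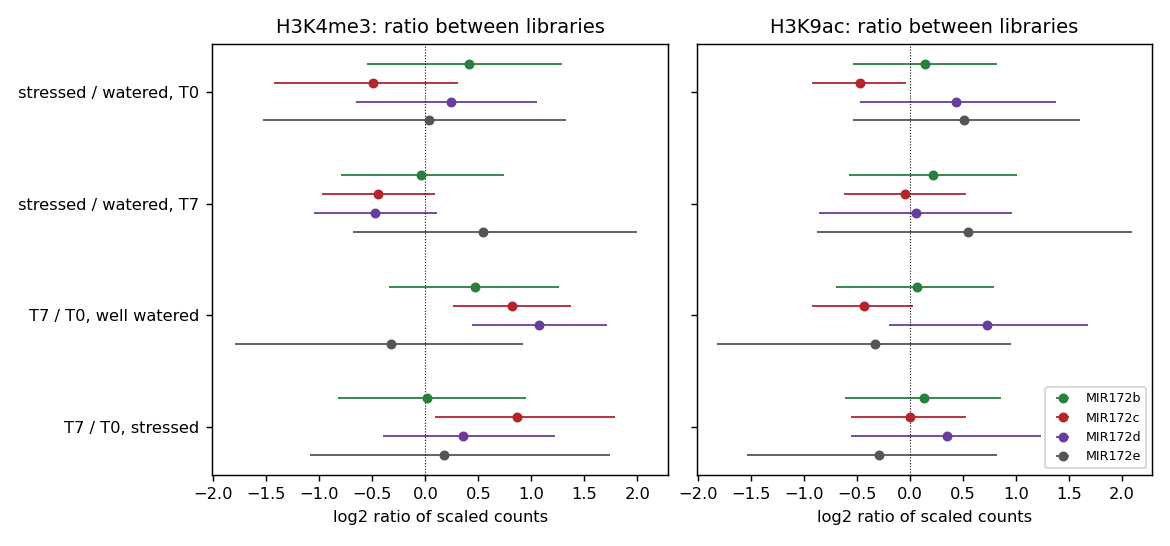
Log2 ratios of scaled counts between pairs of libraries (horizontal axis) for H3K4me3 (left) and H3K9ac (right), in rows for the 4 comparisons, coloured by gene, with bars for the 95% counting interval. Between T7 and T0, H3K4me3 at zma-MIR172c lies above 0 in both waterings, at 0.82 and 0.86, and H3K9ac does not.

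The 7 days between T0 and T7 were the comparison in which a member was called. H3K4me3 at zma-MIR172c rose by 0.84 ± 0.25 (SE) on the log2 scale in the additive fit (edgeR adjusted p = 0.0468), with higher levels at T7 in both waterings. That fit called 3.9% of features over time, 310 higher and 1082 lower, and so 0.869% in the higher direction. The split was 459 higher and 769 lower with total counts, and 314 and 514 with the trend on enrichment removed. Of 116 microRNA genes tested, 2 were called higher, zma-MIR172c and zma-MIR396a, and 2 lower, zma-MIR156k and zma-MIR159e. The call of zma-MIR172c is close to the threshold. Without a filter on low counts its adjusted p was 0.0658 (0.80), and with that trend removed it was 0.0708 (0.82). DESeq2 gave an adjusted p of 1 and called 0 of the 35654 features, 403 of them with an unadjusted p under 0.05.

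At zma-MIR172d, H3K4me3 changed by 0.79 ± 0.28 (SE) in the same fit and was not called (edgeR adjusted p = 0.105). Its scaled CPM went from 5.90 to 12.4 in control plants, a log2 ratio of 1.07 (0.44 to 1.72), and from 6.88 to 8.95 in stressed plants, 0.36 (-0.40 to 1.22). The control ratio met the size rule, which took 3.07% of features in that comparison and 1.3% in the higher direction. With no filter or with the trend removed it no longer met the rule, at 1.01 and 1.03. At zma-MIR172c, scaled CPM went from 8.31 to 14.6 in control plants, 0.82 (0.26 to 1.37), and from 5.79 to 10.8 in stressed plants, 0.86 (0.09 to 1.79), and neither met the rule. In stressed plants the rule took 2.26% of features and 0 of 4 members.

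Features of weak H3K4me3 were in general higher at T7 than at T0 in control plants, and the members were read beside them. In the bin of zma-MIR172c and zma-MIR172d the median ratio over 713 features was 0.04 in control and -0.07 in stressed plants, so their ratios stood 0.77 and 1.03 above it in control plants and 0.93 and 0.42 above it in stressed plants. In the bin of zma-MIR172e the median was 0.72 in control plants, and zma-MIR172e itself was at -0.33 (-1.79 to 0.92). In the additive fit zma-MIR172b and zma-MIR172e had 0.26 ± 0.33 and -0.07 ± 0.56 (edgeR adjusted p = 0.757 and 0.968). Features in the bin of zma-MIR172e had a median of 0.01 over time in stressed plants. For stressed over control plants their median was 0.64 at T0 and 0.02 at T7. The medians of 0.72 and 0.64 share the control T0 library as denominator, and the cause was not tested.

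**Figure D4:**
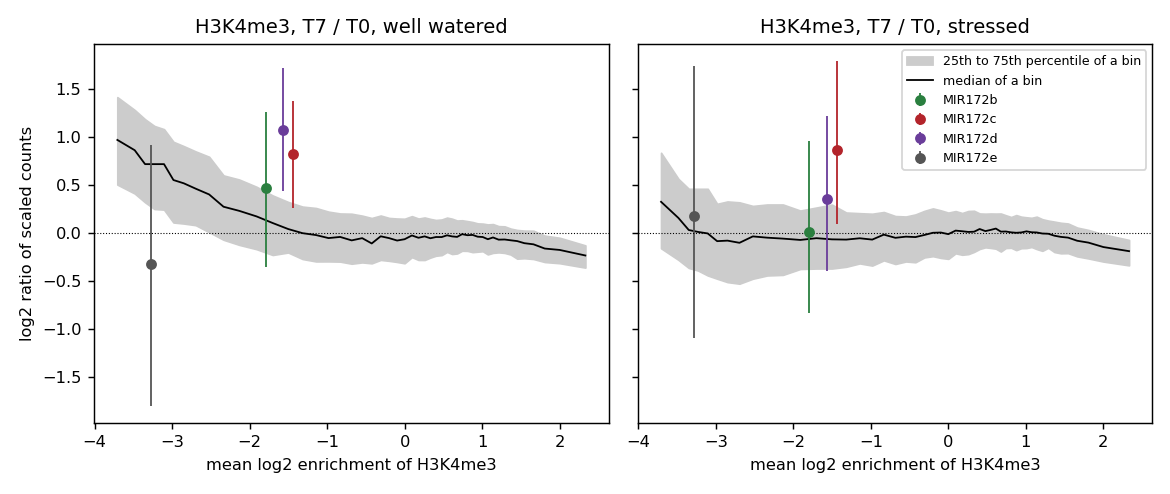
Log2 ratio of H3K4me3 between T7 and T0 (vertical axis) in control (left) and stressed plants (right) against mean log2 enrichment of H3K4me3 (horizontal axis). The line and the grey band give the median and the 25th to 75th percentile of features in 50 bins, and coloured points the MIR172 genes with 95% counting intervals. zma-MIR172c lies 0.77 and 0.93 above the median of its bin.

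No member was called over time for H3K9ac. At zma-MIR172c its log2 ratio of T7 over T0 was -0.43 (-0.93 to 0.03) in control plants and -0.0023 (-0.55 to 0.53) in stressed plants, and the additive fit gave -0.24 ± 0.26 (edgeR adjusted p = 0.999). The largest of the 4 values was that of zma-MIR172d, 0.53 ± 0.37 (edgeR adjusted p = 0.999). The additive fit called 0 of 41294 features for H3K9ac over time (0.0%), with an unadjusted p under 0.05 at 1876 features in edgeR and 34 in DESeq2, which also called 0. The size rule took 1.44% of features in control and 0.308% in stressed plants, and 0 of 4 members in each. The difference between the marks was tested in 1 fit over their 8 libraries, which was added after the values were seen. At zma-MIR172c the change over time was lower for H3K9ac than for H3K4me3 by -1.08 ± 0.34 (SE, unadjusted p = 0.00243). It did not pass adjustment over 35287 features (edgeR adjusted p = 0.986), and 0 features (0.0%) were called in that fit, with unadjusted p under 0.05 at 1728. With the group as a block, which pairs the marks of a group, the value was -1.12 ± 0.33 (edgeR adjusted p = 0.377).

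H3K27me3 was set against whole-gene counts of whole chromatin, and the hairpins are short. Whole chromatin gave 4 to 13 whole-gene counts at the members, too few to place them among other genes. The H3K27me3 counts of zma-MIR172b were 1 and 6 at T0 and 3 and 2 at T7, those of zma-MIR172c 2 and 5, then 6 and 3, and those of zma-MIR172d 1 and 1, then 0 and 7, well watered before stressed. In zma-MIR172e they were 14 and 2 at T0 and 2 and 7 at T7. Its control T0 library stood highest, with a log2 ratio of stressed over control plants of -2.49 (-5.94 to -0.64). No member reached 40 counts over the 4 libraries, so none was tested or met the size rule. For H3K27me3 the rule took 0.213% of features for drought at T0 and 0.555% at T7, and over time 0.765% in control and 0.198% in stressed plants. The count of 0 for zma-MIR172d in the control T7 library allows up to 1.86 CPM by the floor of 3 counts, and its exact 95% interval reaches 2.29 CPM. The log2 enrichment of zma-MIR172e in control plants at T0 was 2.66 (1.47 to 3.87) over whole-gene counts and -1.68 over the 1 kb window, so its sign depends on the window, and whether the MIR172 genes carry H3K27me3 could not be read from these counts.

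The MIR156 genes, which act before miR172 in the age pathway, were taken as the other list of that pathway. It held 11 genes, of which 10 passed the filter for each active mark. H3K4me3 marked 8 of the 11 and H3K9ac 3 of the 11, beside 1 and 2 of the 4 MIR172 genes and 60.0% and 31.1% of features. Without the stressed T0 library the H3K4me3 counts were 8 of 11 and 3 of 4, beside 61.0% of features. In control plants at T0, H3K4me3 enrichment in the list ran from -3.79 at zma-MIR156b to 1.33 at zma-MIR156e, with a median of -1.11 against -2.12 for MIR172. H3K9ac ran from -1.91 at zma-MIR156j to 1.01 at zma-MIR156k, with a median of -0.66 against -0.54. In stressed T0, control T7 and stressed T7 plants the H3K4me3 medians were -0.82, -1.29 and -0.79 for MIR156, against -1.95, -1.31 and -1.54. Those of H3K9ac were -0.81, -0.63 and -0.76, against -0.20, -0.10 and 0.02. The excess of H3K9ac over H3K4me3 had medians of 0.07 to 0.44 in the MIR156 list over the 4 groups. By gene, its mean over the groups ran from -0.75 at zma-MIR156e to 2.26 at zma-MIR156b, beside 0.95 at zma-MIR172d to 2.38 at zma-MIR172c, so the ranges of the lists overlapped. Neither mark was called present at zma-MIR156b. Over time, 1 of the 10 tested MIR156 genes, zma-MIR156k, was called lower for H3K4me3, where 3.03% of features were called lower. Its change was -0.56 ± 0.17 (SE) on the log2 scale (edgeR adjusted p = 0.0459). That call was lost with total counts (edgeR adjusted p = 0.0692), trend removal (0.0592) and DESeq2 (1). The median T7 over T0 ratio of the list was -0.0042 in control and -0.18 in stressed plants. The same medians over the 4 MIR172 genes were 0.64 and 0.27, over all features 0.00085 and -0.02, and over the 116 microRNA genes tested 0.26 and 0.21. For drought, 0 of the 10 met the size rule for either mark at either time. That rule took 1.97% of all features for H3K4me3 and 1.27% for H3K9ac at T0, and 0.191% and 0.194% at T7.

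The microRNA genes most like each member, among the 150 outside MIR172, were found by Euclidean distance over the 8 enrichment values of H3K4me3 and H3K9ac. For zma-MIR172b these were zma-MIR166j at a distance of 1.12 and zma-MIR167b at 1.55. For zma-MIR172c they were zma-MIR166d at 2.13 and zma-MIR166j at 2.22, farther than the nearest neighbours of any other member. For zma-MIR172d they were zma-MIR171m at 1.11 and zma-MIR167d at 1.12, and for zma-MIR172e zma-MIR2118c at 0.75 and zma-MIR167j at 0.82. Among themselves, zma-MIR172b and zma-MIR172d were the closest pair, at 1.89, and zma-MIR172c and zma-MIR172e the most distant, at 6.21. The 8 libraries share their whole-chromatin background, which enters every distance.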

How the data were processed

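The authors deposited whole-number read counts per feature with no normalization, per the file headers and labels, in a table for each mark and a table of whole chromatin. CASAVA 1.8, Bowtie2 and B73 RefGen_v4 are named in the submitters' processing notes. The sources used here give neither the counting program nor how duplicates were handled. Libraries were scaled by TMM over the features tested (edgeR 4.0.16, limma 3.58.1, R 4.3.3), and fitted log2 changes come from the additive model with Benjamini-Hochberg adjustment over all features at 0.05. Each SE is the absolute log2 change over the square root of edgeR's quasi-likelihood F statistic. DESeq2 1.42.0 was the alternative. Ratios and enrichment carry a prior of 0.5 counts. Intervals are exact Clopper-Pearson intervals of 1 count in the sum of a pair, with the scaling taken as known (scipy 1.17.1), and, like the floor of 3 counts, cover counting error only. Scripts were tested on simulated data. The H3K4me3 and H3K9ac windows were assumed to match the 1 kb window of whole chromatin. Alternatives were total counts, DESeq2 size factors, no filter, the other whole-chromatin column, and removal of the trend of ratios on enrichment in 50 bins. The fit over both active marks, the H3K9ac levels at like H3K4me3 and the lookup of long noncoding RNA genes were added after seeing the data. The members, lists and tests were chosen with earlier results of these data known. All members, the MIR156 and MIR529 genes with a letter in their ID (11, all MIR156), the highest and lowest of that list, and the 2 nearest microRNA genes of each member were named by rule. Other called microRNA genes were named after their values were seen. P-values set an effect against how far single libraries of different groups depart from the additive model, shared across features. No spread between replicates enters them. A watering effect that differed between T0 and T7 would count in that departure.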

Additional observations from a re-analysis of the deposited data

How the results depend on the processing

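All drought and time log2 ratios of members for H3K4me3 and H3K9ac stayed within their main 95% intervals under total counts, no filter and trend removal, and 3 ratios near 0 changed sign, of which zma-MIR172e in H3K4me3 at T0 moved most, from 0.04 to -0.61 with the trend removed. In the additive fits of H3K4me3 and H3K9ac, 1 direction reversed: the H3K4me3 watering effect of zma-MIR172e was 0.29 and became -0.032 with the trend removed (adjusted p = 0.996). The H3K4me3 time call of zma-MIR172c was lost with DESeq2 (0.86), no filter (0.80) and trend removal (0.82), and kept with the other scalings. Trend removal and library totals over all features were added to the fits after the data were seen. Features called for H3K4me3 over time numbered 1392, 0 with DESeq2 and 828 with the trend removed, and for watering 1, 0 with DESeq2, 2 with DESeq2 size factors, 13 with no filter and 21 with library totals over all features. For H3K9ac they were 1 for watering, 0 with DESeq2 and 2 with the trend removed, and 0 over time, 1 with total counts and 1 with the trend removed. For H3K27me3 over time they were 0, 1 with no filter and 3 with the trend removed. The cause was not tested. Trend removal changed the features past the size rule from 704 to 460 (H3K4me3) and 525 to 246 (H3K9ac) for drought at T0, from 593 to 223 for H3K9ac over time in control plants, and for H3K27me3 from 188 to 59 for drought at T7 and 259 to 77 over time in control plants. Total counts also moved the split of higher and lower features past the size rule, for H3K4me3 from 464 and 629 to 563 and 458 over time in control plants, from 442 and 262 to 522 and 176 for drought at T0 and from 35 and 33 to 44 and 26 at T7, and for H3K9ac at T0 from 182 and 343 to 247 and 210. Trend removal moved that last split to 135 and 111, and the H3K27me3 splits from 144 and 44 to 27 and 32 for drought at T7 and from 33 and 226 to 30 and 47 over time in control plants. Enrichment itself depends on the window: the median over members and libraries went from -1.76 to 3.25 for H3K4me3 and -0.13 to 5.20 for H3K9ac with whole-gene counts of whole chromatin, and from 1.20 to -3.92 for H3K27me3 with the 1 kb window. No paired analysis was possible because each group has 1 library per mark and so no numbered replicates to pair between groups. The marks of a group could be paired, and with the group as a block, added after the data were seen, the fit over both active marks called 0 features over time and 1 for watering, where it had called 0 and 0, with no member among them.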

Other observations

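Summed over the 4 MIR172 genes, H3K4me3 held 142 counts in control and 59 in stressed plants at T0, then 143 and 175 at T7. The log2 ratio of T7 over T0 was 0.73 (95% counting interval 0.38 to 1.07) in control and 0.43 (0.01 to 0.89) in stressed plants, and that of stressed over control plants -0.00031 (-0.47 to 0.44) at T0 and -0.29 (-0.62 to 0.04) at T7. Per gene, the median ratios over time were 0.64 and 0.27 for the 4 MIR172 genes, beside 0.26 and 0.21 for the microRNA genes tested. Of the 143 counts, zma-MIR172c held 59 and zma-MIR172d 50. In control plants zma-MIR172e alone was below 0 over time, at -0.33. The H3K9ac sums were 186 and 152 at T0 and 116 and 114 at T7, with ratios from -0.14 to 0.09 in the 4 comparisons and 0 in each interval.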
